A study of Mus musculus with 8 samples.

Results

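The cathepsins are the main proteases of the lysosome, and 10 of their genes (Ctsa, Ctsb, Ctsc, Ctsd, Ctsf, Ctsh, Ctsk, Ctsl, Ctss and Ctsz) were followed in spinal cord microglia. They were chosen by name and found through their Ensembl identifiers among the 54532 genes of the count table. RNA was sequenced from CD11b-positive, CD45-low, Ly6C-negative cells, isolated by flow cytometry out of the spinal cord of each of 8 female mice. Of these, 4 were wild type (WT, mice 503, 504, 506 and 527) and 4 carried the knock-in allele Cd11b-P2X4mCherryIN (KI, mice 513, 526, 528 and 549), with 1 library per mouse. No treatment, age or disease is given in their labels, and the labels do not describe the allele beyond its name, which combines CD11b, the ATP-gated channel P2X4 and the fluorescent protein mCherry.

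Cathepsins are made as inactive precursors, tagged in the Golgi with mannose 6-phosphate, carried to endosomes and activated there by acid and by cleavage. Most are cysteine proteases and are held in check by cystatins, whereas cathepsin D is an aspartic protease and cathepsin A a serine carboxypeptidase. In microglia and other phagocytes they digest engulfed material, and cathepsin S is known for trimming the invariant chain of class II molecules.

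The libraries held between 45167483 and 54049801 reads on genes, so that 3 reads, the most that a count of 0 allows for, corresponded to 0.0555 to 0.0664 CPM (reads on a gene scaled to library size). Markers of microglia (10 of 10 tested) summed to between 33596 and 39139 CPM in every library. Of the 10, 3 had an unadjusted p under 0.05, where 7.79% of all tested genes did. Tmem119 (3009 ± 265 CPM in WT, 2418 ± 408 in KI) and Cx3cr1 (4859 ± 380, 4135 ± 322) were lower in KI. Gpr34 (4287 ± 208, 4653 ± 211) was higher, and the edgeR adjusted p-values of the 3 were 0.533 to 0.631. Markers of border-associated macrophages (5 of 7 tested) summed to 7.45 to 10.9 CPM in WT and 4.94 to 24.3 in KI, and those of neutrophils (2 of 7 tested) to 0.464 to 19.2 and 0.148 to 56.5 CPM. In KI 528 the sums for border-associated macrophages, neutrophils, monocytes (8.39 CPM), fibroblasts (9.88 CPM) and dendritic cells (17.8 CPM, 7.01 to 13.7 elsewhere) were the highest of the 8 libraries. Immediate early and dissociation genes summed to 2764 CPM in WT 504 and 2803 in KI 526, against 5122 to 8271 in the other 6 libraries. T and NK cell markers (0 of 6 tested) summed to at most 1.52 CPM. Erythroid markers summed to 152 to 496 CPM in WT and 93.4 to 292 in KI. Of their 4 genes, 3 had an unadjusted p under 0.05, lower in KI, as had 4.56% of all tested genes, and 0 passed adjustment. In sorted bulk RNA, fewer cells of a type and less RNA per cell cannot be told apart.

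Ctss dominated the family. It encodes cathepsin S, an endopeptidase that stays active at neutral pH, and lies on mm10 chromosome 3 from 95526786 to 95556403 (plus strand). Its deposited FPKM (a level per kilobase of exon, scaled to library size) was 6237, 6735, 6102 and 6161 in WT 503, 504, 506 and 527, and 6565, 6231, 7288 and 6007 in KI 513, 526, 528 and 549. Every library thus lay near the same level, with KI 528 the highest and KI 549 the lowest. By mean FPKM Ctss ranked 1 among the 47884 genes of the FPKM table. It made up 55.6 ± 0.683% of the summed FPKM of the 10 genes in WT and 57.1 ± 1.84% in KI (mean ± SD over 4 libraries).

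The exopeptidase genes came next, although not in a block. Ctsz (chromosome 2, 174427493 to 174439039, minus strand), whose product removes single residues from the carboxyl end of proteins, averaged 1758 ± 64.6 FPKM in WT and 1786 ± 106 in KI. Ctsc, whose product removes dipeptides from the amino end and activates serine proteases of granules, averaged 487 ± 34.5 and 490 ± 30.4 FPKM. Ctsh, an aminopeptidase gene, averaged 291 ± 10.7 and 297 ± 14.6 FPKM. Ctsb, which encodes an enzyme with both endopeptidase and carboxypeptidase activity, stood between them at 758 ± 26.8 and 753 ± 28.3 FPKM.

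Ctsd, the gene of the aspartic protease cathepsin D (chromosome 7, 142375911 to 142388038, minus strand), followed Ctsz at 1089 ± 40.1 FPKM in WT and 955 ± 90.6 in KI. Ctsa (chromosome 2, 164832873 to 164841032, plus strand), which encodes the serine carboxypeptidase that also protects lysosomal neuraminidase and beta-galactosidase, averaged 355 ± 7.30 and 332 ± 6.26 FPKM. The cysteine endopeptidase genes Ctsf and Ctsl were lower, with Ctsf at 198 ± 9.72 and 176 ± 18.6 FPKM and Ctsl at 102 ± 8.62 and 99.7 ± 5.29. Ctsk, known for collagen breakdown in bone-resorbing osteoclasts, was barely present: WT 503, 504, 506 and 527 held 18, 5, 4 and 64 reads of it, and KI 513, 526, 528 and 549 held 2, 9, 62 and 25. The high libraries, WT 527 and KI 528, came from different genotypes.

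**Figure D1:**
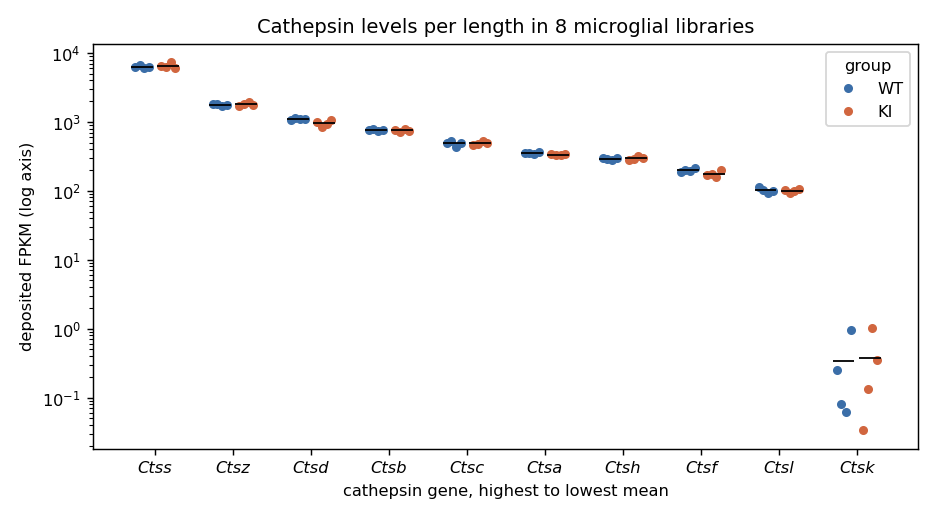
Deposited FPKM (log axis) of the 10 cathepsin genes, with 1 point per library (4 WT, blue, and 4 KI, orange) and a bar at each group mean. Ctss lies between 6007 and 7288 FPKM in all 8 libraries, and Ctsk between 0.0334 and 1.01.

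The descending order Ctss, Ctsz, Ctsd, Ctsb, Ctsc, Ctsa, Ctsh, Ctsf, Ctsl and Ctsk held at every step in 8 of 8 libraries. The narrowest step was that from Ctsa to Ctsh, with a ratio of 1.04 to 1.26, and the widest apart from Ctsk was that from Ctss to Ctsz, with a ratio of 3.42 to 3.92.

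The middle of this order depended on the length by which reads were divided. Summed exon lengths count every annotated isoform, and they were 5808 bases for Ctsc and 4499 for Ctsh against 2493 and 1617 bases for the longest principal coding transcript of each. For Ctss (1358 and 1355 bases) and Ctsz (1441 by both measures) they hardly differed. Per principal transcript, Ctsc moved from the fifth to the third place, above Ctsd in 7 of 8 libraries, and Ctsd lay above Ctsb in 6 of 8. Ctsh moved above Ctsa in 8 of 8. For Ctsl the principal transcripts ranged from 1971 to 6168 bases, and its place, the ninth with the longest, rests on that choice. Ctss held 47.6% of the summed level on this scale, and ranked 2 among all genes.

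Some members also share exon bases with other genes of the count table, where reads cannot be given to a single gene. This held for 808 of the 2351 exon bases of Ctsd (34.4%), shared with the gene model Gm49369 on the same strand, and for 1742 of 6489 in Ctsl (26.8%), shared with Gm47123 and Gm49230. Ctsa shared 819 of 4715 bases with Neurl2 and Pltp, Ctsb 774 of 6051 with Fdft1, and Ctsz 10 of 1441 with Nelfcd. Per kilobase of unshared exon, the order of the 10 was as by FPKM, but Ctsd came close to Ctsz, which lay above it in 6 of 8 libraries with a ratio of 0.964 to 1.35. On that scale Ctss held 51.1% of the summed level and Ctsd 13.3%, against 9.60% (WT) and 8.39% (KI) of the summed FPKM.

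**Figure D2:**
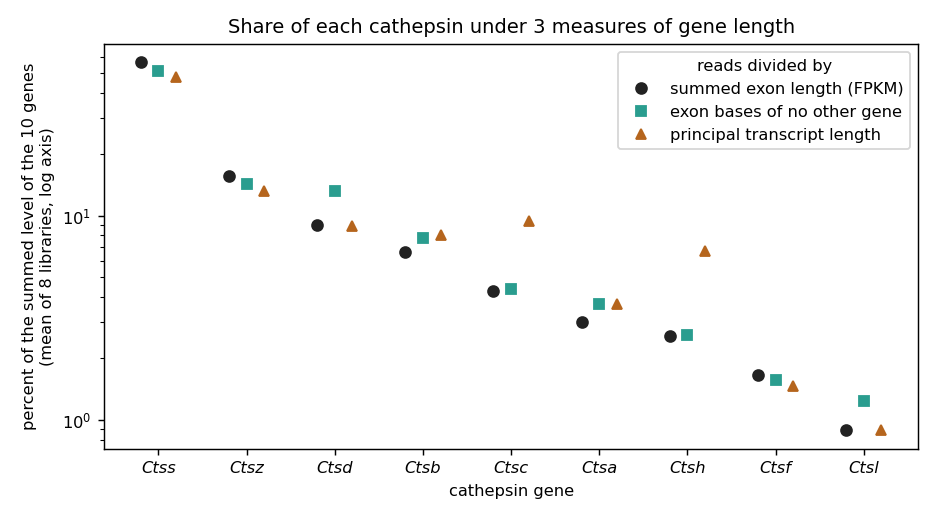
Percent of the summed level of the 10 genes held by each of 9 cathepsins (log axis, mean of 8 libraries; Ctsk, at 0.003%, is not drawn), with reads divided by summed exon length (circles), by unshared exon bases (squares) or by principal transcript length (triangles). Ctss is first under each, while Ctsc and Ctsh rise per principal transcript and Ctsd rises per unshared base.

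The summed level of the family differed between genotypes by less than the spread between libraries. Its summed FPKM was 11348 ± 422 (SD) in WT and 11413 ± 645 in KI, with KI 528 highest at 12344 and WT 506 lowest at 10934, so the groups overlapped. The 10 genes took 2.30 ± 0.0840% of all reads in WT and 2.28 ± 0.0980% in KI.

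No cathepsin passed the test of KI against WT. By edgeR's quasi-likelihood test with Benjamini-Hochberg adjustment over 17291 genes, 0 of 10 members were called, as were 0% of all genes, and 1 member, Ctsd, had an unadjusted p under 0.05, where 7.79% of all genes did; it was lower in KI, as were 4.56% of all genes at that threshold. DESeq2 called 0 of the 9 members to which it gave an adjusted p, and 1.27% of its genes (0.971% lower in KI), and edgeR's likelihood ratio test called 0 of 10, and 0.243% of all genes. The median log2 fold change of the members was 0.01, and that of all tested genes 0.00, with 6 members above 0 and 4 below. For the 9 members other than Ctsk, the 95% intervals of the KI to WT ratio lay between 0.786 and 1.17. For Ctsk the interval ran from 0.209 to 6.27.

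For Ctss, Ctsb, Ctsc, Ctsz, Ctsh and Ctsl the estimates lay within 0.06 of 0 on the log2 scale. Ctss was read at 7181, 7964, 7077 and 7243 CPM in WT 503, 504, 506 and 527 and at 7756, 7105, 8804 and 7047 CPM in KI 513, 526, 528 and 549. The lowest and the highest library were both KI, and the log2 fold change of KI over WT was 0.06 (95% interval −0.11 to 0.22, edgeR adjusted p = 0.915). Without KI 528 it was −0.01. The log2 fold change was 0.00 for Ctsb (4430 ± 201 CPM in WT and 4440 ± 269 in KI), 0.02 for Ctsc, 0.03 for Ctsz, 0.04 for Ctsh and −0.02 for Ctsl. Those of Ctsb (−0.03), Ctsc (−0.03), Ctsz (−0.02) and Ctsh (−0.00) also changed sign without KI 528, the library with the highest sums of border-associated macrophage and neutrophil markers, whose part in these levels was not tested.

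Ctsd had the smallest p of the family. It was read at 2228, 2500, 2325 and 2349 CPM in WT 503, 504, 506 and 527 and at 2165, 1776, 2081 and 2288 CPM in KI 513, 526, 528 and 549. The 3 lowest libraries were KI, but KI 549 lay above WT 503, so the groups overlapped. On the log2 scale KI differed from WT by −0.18 (SE 0.0759, 95% interval −0.35 to −0.01). It had an unadjusted p of 0.0407 and an edgeR adjusted p of 0.622. Without KI 526 it was −0.11, and without KI 549 −0.23.

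Ctsf and Ctsa had the next smallest p and lower means in KI as well. Ctsf (chromosome 19, 4855129 to 4860912, plus strand) was read at 330, 357, 349 and 380 CPM in WT 503, 504, 506 and 527 and at 310, 303, 289 and 361 CPM in KI 513, 526, 528 and 549. Again KI 549 lay within the WT range. The estimate on the log2 scale was −0.17 (95% interval −0.34 to 0.01) and had an edgeR adjusted p of 0.667. Ctsa was read at 1591, 1617, 1556 and 1654 CPM in WT 503, 504, 506 and 527 and at 1535, 1437, 1531 and 1535 CPM in KI 513, 526, 528 and 549. All 4 KI libraries lay below all 4 WT libraries, by a small margin, with a log2 fold change of −0.09 (95% interval −0.19 to 0.01, edgeR adjusted p = 0.708). Such a gap was found in 1 of the 10 members and in 4.94% of all tested genes (2.60% with KI lower and 2.34% with KI higher). Erythroid markers and the microglia markers Tmem119 and Cx3cr1 also had lower means in KI, with KI 549 within the WT range for both microglia markers, and their part in the values of Ctsd, Ctsf and Ctsa was not tested.

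**Figure D3:**
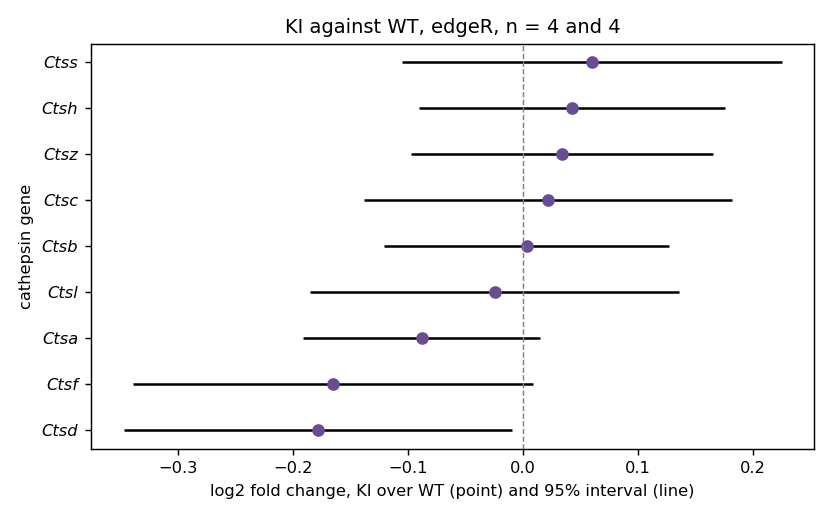
Log2 fold change of KI over WT (points) with 95% intervals (lines) for 9 cathepsins from the edgeR fit over all genes (4 WT and 4 KI libraries). The interval of Ctsd ends at −0.01, the others include 0; Ctsk, with an interval from −2.26 to 2.65, is not drawn.

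Transcripts of Ctsz (57.3% GC), Ctsf (56.6%), Ctsd (55.9%) and Ctsa (54.5%) were GC-rich. For Ctsb, Ctsc, Ctsh, Ctsk, Ctsl and Ctss the content was 41.1% to 50.1%. The libraries differed in how levels followed GC content. Their slopes, in log2 units per 10 points of GC and centred over the 8 libraries, ran from −0.0146 to 0.0992 in WT and from −0.111 (KI 526) to 0.0498 (KI 549) in KI. With a linear GC trend taken out of each library, the log2 fold change was −0.10 for Ctsd, −0.08 for Ctsf and −0.03 for Ctsa. In that fit 0 members had an unadjusted p under 0.05, where 1218 of all 17291 genes did. Ctsz, at 57.3% GC, had a log2 fold change of 0.03 before this step and of 0.13 after it (edgeR adjusted p = 0.788). All KI slopes but that of KI 549 lay below all WT slopes, so GC trend and genotype cannot be fully told apart. The part of GC content in these estimates was not tested.

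Members were also compared with each other across the 8 libraries. Of the 45 pairs, 38 had a positive Pearson correlation of log2 CPM, 12 had an unadjusted exact permutation p under 0.05, and 0 passed adjustment over the 45. Pairs of other genes were not counted, so whether these counts exceed the general rate was not tested. Ctsc and Ctsz had the smallest p (r = 0.914, Spearman rho = 0.810, exact permutation p = 0.00166 and 0.0218, adjusted 0.0681 and 0.14, r = 0.765 without the 2 libraries farthest from the median of Ctsc). Ctsd and Ctsa gave r = 0.873 and rho = 0.905 (exact permutation p = 0.00737 and 0.00456, adjusted 0.0953 and 0.14). With group means removed r was 0.763, and without the 2 libraries farthest from the median of Ctsa 0.744. Within WT alone it was 0.335, and within KI alone 0.946. Ctsd and Ctss, the most abundant aspartic and cysteine cathepsins, gave values near 0 (r = 0.0221, rho = −0.0238, exact permutation p = 0.958 and 0.977, adjusted 0.998 and 0.977). For this pair r was −0.896 without the 2 libraries farthest from the median of Ctsd, but 0.265 with group means removed. Within WT it was 0.865 and within KI 0.131, so its sign depended on the libraries used.

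**Figure D4:**
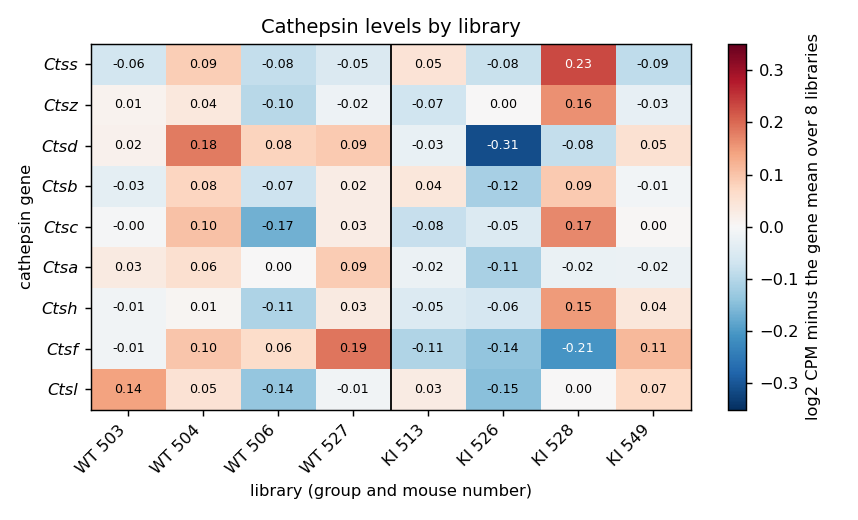
Log2 CPM of 9 cathepsins in each library, centred on the gene's mean over the 8 libraries (columns, 4 WT then 4 KI; colours and printed values give the difference). KI 528 is highest for Ctss (0.23) and Ctsz (0.16) and lowest for Ctsf (−0.21), while KI 526 is lowest for Ctsd (−0.31).

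The genes most like the 3 leading cathepsins were ranked by Pearson correlation of log2 CPM over the 8 libraries, among 9029 genes that have a name and average 5 CPM or more. Closest to Ctss was Cst3, which encodes cystatin C, the secreted inhibitor of cysteine cathepsins (r = 0.982, rho = 0.905). Closest to Ctsz were H2-DMa, of the class II peptide exchange factor (r = 0.973, rho = 0.929), and the hexokinase gene Hk2 (r = 0.958, rho = 0.905). Closest to Ctsd were Reep5, an endoplasmic reticulum shaping gene (r = 0.982, rho = 0.976), and Gorasp2, a Golgi stacking gene (r = 0.980, rho = 0.952). These are the top of a ranking, and their exact permutation p-values, adjusted over the 9029 genes, ran from 0.0746 (Reep5) to 0.785.

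**Figure D5:**
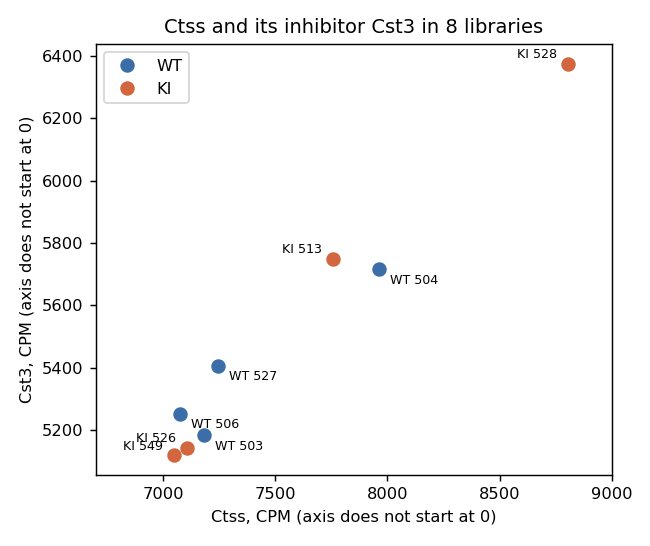
CPM of Ctss (x axis) and Cst3 (y axis) in 8 libraries, 1 point each (WT blue, KI orange; neither axis starts at 0). KI 528 is highest and KI 549 lowest for both genes, and without the 2 libraries farthest from the median of Ctss r was 0.954.

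Among the other cathepsin genes, Ctso, a widely expressed cysteine cathepsin gene, averaged 343 ± 14.5 CPM across WT and 369 ± 24.6 across KI libraries (difference of 0.11 on the log2 scale, edgeR adjusted p = 0.745). Ctse, of the aspartic cathepsin E, averaged 4.50 ± 1.02 and 4.16 ± 1.09 CPM. Ctsw, of lymphocytes, averaged below 1 CPM and was the third of the 13 genes to be tested. The remaining 10 averaged at most 0.124 CPM and were not tested. Among them were the neutrophil gene Ctsg and the placental cluster on chromosome 13, which also carries Ctsl. Of the 3 tested, 0 had an unadjusted p under 0.05.

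Cathepsin inhibitors showed a single dominant gene. Cst3 averaged 5389 ± 236 CPM across WT and 5597 ± 596 across KI libraries, Cstb, of the cytosolic stefin B, at 68.5 ± 6.87 and 76.3 ± 3.19, and Cst7, of cystatin F, which acts inside the endolysosome, at 12.1 ± 4.81 and 15.6 ± 3.54. Of the 21 genes listed, 6 were tested, of which 0 had an unadjusted p under 0.05, 4 had estimates above 0 and the median log2 fold change was 0.10. The other lysosomal proteases were led by Lgmn, the asparaginyl endopeptidase that cleaves cathepsin precursors, with a log2 fold change of 0.01. Tpp1, a tripeptidyl peptidase gene, averaged 690 ± 62.3 and 660 ± 29 CPM, and Scpep1, a serine carboxypeptidase gene, 272 ± 26.1 and 273 ± 13.3. In this list 1 of 7 tested genes, the dipeptidyl peptidase gene Dpp7, had an unadjusted p under 0.05, where 7.79% of all genes did. It was higher in KI (WT 68.6 ± 2.98 CPM, KI 78.8 ± 6.45, edgeR unadjusted p = 0.0389, edgeR adjusted p = 0.617). Its groups did not overlap, as for 2.34% of all genes in that direction.

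Genes that sort cathepsins to the lysosome had 10 of 13 estimates below 0, as had 49.9% of all tested genes, and a median log2 fold change of −0.08. At an unadjusted p under 0.05 were 4, all with lower means in KI, where 4.56% of all genes were, and 0 passed adjustment. Nagpa, which uncovers the mannose 6-phosphate tag, was read at 112, 128, 138 and 145 CPM in WT 503, 504, 506 and 527 and at 104, 95.1, 87.4 and 106 CPM in KI 513, 526, 528 and 549. The groups did not overlap, as for 2.60% of all genes in that direction, with a log2 fold change of −0.41 (95% interval −0.63 to −0.19, edgeR adjusted p = 0.507, DESeq2 adjusted p = 0.0194). The coat adaptor genes Gga2 (15.5 ± 1.78 and 9.73 ± 3.74 CPM), Ap1b1 (31.3 ± 3.95 and 21.9 ± 6.42) and Ap1g1 (67.2 ± 4.11 and 56.8 ± 7.06) had edgeR adjusted p-values of 0.598 to 0.631. M6pr, the gene of the smaller receptor that carries tagged enzymes, averaged 562 ± 33.2 and 575 ± 20.7 CPM, and Sort1, another sorting receptor, 85.6 ± 9.61 and 81.1 ± 14.9.

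Of the partners and substrates of cathepsins, 4 of 13 tested genes had an unadjusted p under 0.05, where 7.79% of all genes did. Of these 4, 2 lay in each direction and 0 passed adjustment, and the median log2 fold change of the list was 0.01. Psap, whose product cathepsin D cuts into saposins, averaged 4088 ± 322 CPM (WT) and 3599 ± 302 (KI, edgeR adjusted p = 0.609), and Grn, the progranulin gene, 1021 ± 55.3 and 883 ± 102 (edgeR adjusted p = 0.598). The class II genes Cd74 (191 ± 63.6 and 302 ± 120 CPM), whose product cathepsin S trims, and H2-Ab1 (42.7 ± 15 and 73.2 ± 34.2) had higher means in KI, with edgeR adjusted p-values of 0.634 and 0.629. Both were highest in KI 528 (442 and 110 CPM), where the dendritic cell marker Cd209a had 255 reads against 0 to 4 in the others; the part of such cells was not tested. The endosomal receptor gene Tlr7, whose product cathepsins process, averaged 546 ± 43.7 and 585 ± 50.6 CPM. Transcription factors that regulate lysosomal genes are encoded by Tfe3 (134 ± 3.31 and 131 ± 10.3 CPM), Mitf (43.2 ± 8.59 and 39.2 ± 5.51), Tfeb (8.80 ± 1.24 and 6.29 ± 1.97) and Tfec (0.599 ± 0.459 and 0.232 ± 0.365). Of these, 4 of 4 estimates were below 0, as were 49.9% of all tested genes, and 0 had an unadjusted p under 0.05. Their median was −0.31, but the estimates grew as levels fell. They were −0.03 for Tfe3, −0.14 for Mitf, −0.48 for Tfeb and −1.35 for Tfec, which had 0 to 53 reads a library.

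Those factors bind the letters CACGTG, so the 250 bases before the RefSeq start of each member (GRCm38.p6) were searched for them. RefSeq windows were listed for 8 of the 10 genes, with 9 starts; Ctsb and Ctsh had none. CACGTG, which reads the same on both strands, was found in windows of 4 genes, Ctsa, Ctsd, Ctsf and Ctsl, and in 6.02% of the 32851 promoter windows of all genes. The longer TCACGTGA, which contains it, was found for Ctsa and Ctsd and in 0.785% of windows. On either strand, GAGGAAGT, bound by the myeloid factor PU.1, was found for Ctsc (2.44% of windows) and TATAAA for Ctss (12.4%). The TATAAA match of Ctss was on the opposite strand, near the end of the window farthest from the start. The Ctsa match lay before the downstream of its 2 listed starts. A window before a RefSeq start can lie inside the gene's outer bounds in the count table. That was so for Ctsa (window 164833523 to 164833772, gene from 164832873) and Ctsl (window 64370521 to 64370770, gene to 64370890). The Ctsd window lay mostly, and the Ctsf window partly, inside the bounds of its gene. These matches are a description, and binding was not measured. The windows of Ctsd and Ctsf, which have the motif and the largest estimated differences among the abundant members, are shown with that of Ctss, the most abundant gene, which lacks it. Not shown are Ctsl, which has the motif at a log2 fold change of −0.02, and Ctsa, which has the longer one at −0.09. Ctsf lacks the longer one. Whether the motif goes with the estimates was not tested. They are written 5′ to 3′ on the gene's strand, and capitals mark CACGTG.
Ctsd (chr7:142387828-142388077, minus strand): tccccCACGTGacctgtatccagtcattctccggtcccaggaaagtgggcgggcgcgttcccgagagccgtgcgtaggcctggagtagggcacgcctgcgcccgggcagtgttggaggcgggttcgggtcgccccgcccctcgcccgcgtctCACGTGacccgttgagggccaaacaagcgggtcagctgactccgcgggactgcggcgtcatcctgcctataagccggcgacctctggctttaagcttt
Ctsf (chr19:4854915-4855164, plus strand): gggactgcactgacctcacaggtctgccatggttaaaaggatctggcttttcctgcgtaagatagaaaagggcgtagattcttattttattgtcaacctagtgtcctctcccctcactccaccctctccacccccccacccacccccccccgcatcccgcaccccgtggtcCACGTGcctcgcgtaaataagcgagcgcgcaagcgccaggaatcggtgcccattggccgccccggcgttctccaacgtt
Ctss (chr3:95526536-95526785, plus strand): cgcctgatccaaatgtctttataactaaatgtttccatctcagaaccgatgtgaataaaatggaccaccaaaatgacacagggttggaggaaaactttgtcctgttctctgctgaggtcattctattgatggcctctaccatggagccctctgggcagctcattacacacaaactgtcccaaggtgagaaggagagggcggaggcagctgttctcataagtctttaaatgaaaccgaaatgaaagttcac

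In Ctsd the motif began 245 and 98 bases before the start, and in Ctsf 79 bases before it. The 250 bases were 67.2% GC for Ctsd, 59.2% for Ctsf and 44.8% for Ctss.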

How the data were processed

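The submitters' processing notes name the mouse build mm10 and, among the tools, limma, edgeR, R 3.6.0, featureCounts 2.0.3, the aligner STAR 2.7.5c and SAMtools 1.9. Per the file headers, the deposited counts are reads summed over exons by gene with featureCounts 2.0.3, from primary alignments of read pairs, without chimeric ones and without regard to strand. No option to count pairs as fragments is given, so both reads of a pair can count; 68.9% to 70.8% of the counts from 1 to 9 were even. The deposited FPKM values followed the counts divided by library total and by exon length shortened by a constant, 186 bases in WT 503; no source used here names their tool. A deposited table of normalized values was not used, nor were 8 count columns that match no label. Symbols were matched through GENCODE M21 for 54495 of 54532 genes.

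KI was compared with WT with edgeR 4.0.16 in R 4.3.3 (TMM scaling, filterByExpr with minimum count 10 and minimum total 15, robust quasi-likelihood test, group as the only term). Adjusted p under 0.05 counted as a call. CPM is scaled by TMM. Means are given with SD over 4 libraries. The fit was tested on simulated counts. GC content was that of the longest GENCODE transcript, for 54409 genes. Alternatives were RLE scaling, no filter, DESeq2 1.42.0, the likelihood ratio test, limma 3.58.1 on voom values and on log2(FPKM + 1) or log2(FPKM + 0.1), a GC correction and leaving out each library. The 2 other measures of length were added after seeing the data. Correlations were tested over all 40320 pairings, 2-sided. The members, gene lists, motifs and printed promoters were chosen with earlier results of these data known. Named genes were the members, other cathepsin genes with at least 1 CPM, in each pathway list those with unadjusted p under 0.05 and the 3 most abundant, and the 2 genes most like each of the 3 leading members, of which 1 is not reported here; others were named after their values were seen.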

Additional observations from a re-analysis of the deposited data

Results flagged for a closer look

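Of 26 sets of 4 libraries checked for a library far from the others (12 cathepsin genes and the summed FPKM, in each genotype), 1 stood out, where chance gives about 1 in 20. For Ctsa in KI, the library KI 526 was lowest at 1437 CPM, while KI 513, 528 and 549 lay between 1531 and 1535 CPM. KI 526 was also the lowest of the 8 libraries for Ctsd (1776 CPM), Ctsb (4088 CPM) and Ctsl (574 CPM), and had the lowest slope on GC content. Its sum of immediate early and dissociation genes was 2803 CPM, against 7022 to 8271 in the other KI libraries. Its oligodendrocyte marker sum was 273 CPM, against 148 to 175. In WT, mouse 504 had an immediate early sum of 2764 CPM and the highest Ctsd of the 8 libraries (2500 CPM). Mouse 527 had the highest oligodendrocyte sum (284 CPM) and the highest Ctsa (1654 CPM). The part of these genes was not tested. Without KI 526 the log2 fold change of Ctsa was −0.07.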

How the results depend on the processing

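No paired analysis was possible because the mouse numbers of WT and KI are not shared. No member was called under any of the 17 alternatives to the edgeR quasi-likelihood fit, with 0 to 2 of the 10 members at an unadjusted p under 0.05. The share of all genes at that threshold was lowest on log2(FPKM + 1) without the filter (1999 of 35377) and highest with DESeq2 (1650 of 17291). Over all genes DESeq2 called 139 and the likelihood ratio test 42, against 0 by the quasi-likelihood test and 0 by it with any 1 library left out. Ctsa, Ctsd and Ctsf kept estimates below 0 in all 17, from −0.10 to −0.03, −0.23 to −0.10 and −0.24 to −0.08. The other estimates changed sign in some. On log2(FPKM + 1), with and without the filter, and on log2(FPKM + 0.1), Ctsb was at −0.0087, −0.0087 and −0.0087, and with the GC trend removed Ctsc was at −0.056. With 1 library left out, the log2 fold change ranged from −0.027 to 0.037 for Ctsb, −0.033 to 0.060 for Ctsc, −0.0012 to 0.065 for Ctsh, −0.97 to 1.55 for Ctsk, −0.071 to 0.020 for Ctsl, −0.012 to 0.099 for Ctss and −0.016 to 0.059 for Ctsz. The share of Ctss in the summed level, 56.3% by FPKM, was 54.7% by TPM, 47.6% per principal transcript and 51.1% per unshared exon base, which follows from the lengths used. The KI to WT ratio of summed FPKM, 1.01, ranged from 0.978 to 1.02 with 1 library left out. Ctsk had 4 to 64 reads a library in WT and 2 to 62 in KI.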
